A study of Caenorhabditis elegans with 18 samples.

Results

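The heat response of daf-16 mutant worms was described from 4 of the 18 samples of the series. These are 2 libraries of the strain CF1038, which carries the allele daf-16(mu86), heated to 35 °C for 1 h and then returned to 20 °C for 2 h, and 2 libraries of the same strain kept at 20 °C. The members were chosen by their labels, as the samples labelled replicate 2 and 3 of both groups, with earlier results of these data known. The worms were whole day-1 adults of Caenorhabditis elegans, grown on OP50-1 bacteria from larvae synchronised at the first stage, and the submitters describe the replicates as biological. The wild-type strain N2 Bristol, heated or kept at 20 °C in the same way, served as the comparison strain (2 libraries per group). The matching 4 libraries of the pqm-1(ok485) strain RB711 entered the fit to estimate the spread between replicates. mu86 is a germline allele, so every cell of the worm carries it. RNA came from whole worms, so fewer cells of a type and less RNA per cell cannot be told apart in any value below.

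The response to heat in worms is driven mainly by the transcription factor HSF-1, which switches on chaperones that hold or refold damaged proteins. DAF-16 is the worm's FOXO transcription factor. It is restrained by insulin signalling through the receptor DAF-2, moves into the nucleus under stress including heat, and raises class I genes such as mtl-1, sod-3 and hsp-12.6. PQM-1 binds near many genes of the opposite set, class II, which includes the dod genes. The daf-16 mutant shows which part of the heat response still takes place when this factor is disabled by mutation.

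One column of the deposited table has the name of a daf-16 sample (20 °C, replicate 1) but holds lengths of transcripts, so the header may be displaced by 1 column. The 5 other libraries labelled replicate 1 went against their labels. In counts per 1000000 of the library total (CPM), the heat-inducible gene hsp-16.2 had 208.7 CPM in the replicate 1 library labelled N2 at 20 °C and 324.3 CPM in that labelled pqm-1 at 20 °C. It had 0.256, 0.417 and 0.0391 CPM in those labelled replicate 1 of daf-16 35 °C, N2 35 °C and pqm-1 35 °C. The 6 heated libraries used here had 263 to 564 CPM on the same scale, against 0.0461 to 0.420 CPM in the 6 unheated ones. The libraries labelled replicate 2 and 3 keep their group under both readings of the header, and all results below rest on those 12. Their gene-level totals were 18650461 to 22195082 counts in the 4 daf-16 libraries and reached 33399557 counts in N2. Adding the libraries labelled replicate 1 under their header names left 0 genes called for heat in daf-16 by edgeR, with 874 at an unadjusted p under 0.05.

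The mutated gene itself was still counted in the mutant. daf-16 had 90.0 and 97.6 CPM (scaled by TMM, as are all CPM values from here on) in the heated daf-16 libraries and 115 and 97.7 CPM in the unheated ones, against 102 and 112 CPM in heated and 105 and 88.0 CPM in unheated N2. These levels overlap between strains, and heat did not move the gene past the test in the mutant (log2 fold change -0.18 ± 0.11, SE, n = 2 per group; adjusted p = 0.208). Each SE of a log2 fold change comes from the edgeR fit to all 12 libraries, not from the libraries compared alone. The rows of its transcripts did separate the strains. The daf-16 transcript row with the fewest counts lay 1.84% ± 0.546 below the row with the most in the mutant (SD, n = 4), against 25.6% ± 2.18 in N2 (SD, n = 4). The table counts whole transcripts, so it does not show in which exons the reads lay, and a level outside the deleted part checks nothing.

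Heat changed a large part of the transcriptome without functional daf-16. Of 14286 genes tested, 4720 (33%) were called by edgeR's quasi-likelihood test (p adjusted after Benjamini and Hochberg under 0.05), 2359 higher (16.5%) and 2361 lower (16.5%). The median log2 fold change was 0.55 among genes called higher, -0.69 among genes called lower and 0.03 over all genes tested. The largest changes were mostly rises. At a log2 fold change of at least 1 in size, 548 genes rose and 641 fell, but at a size of at least 3 there were 105 rises and 16 falls, and at a size of at least 5 there were 38 and 2. Both heated libraries lay above both unheated ones in 4981 genes (34.9%) and below them in 4410 (30.9%). Without the daf-16 20 °C library labelled replicate 3, 3059 genes were called, 1392 of them higher.

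**Figure D1:**
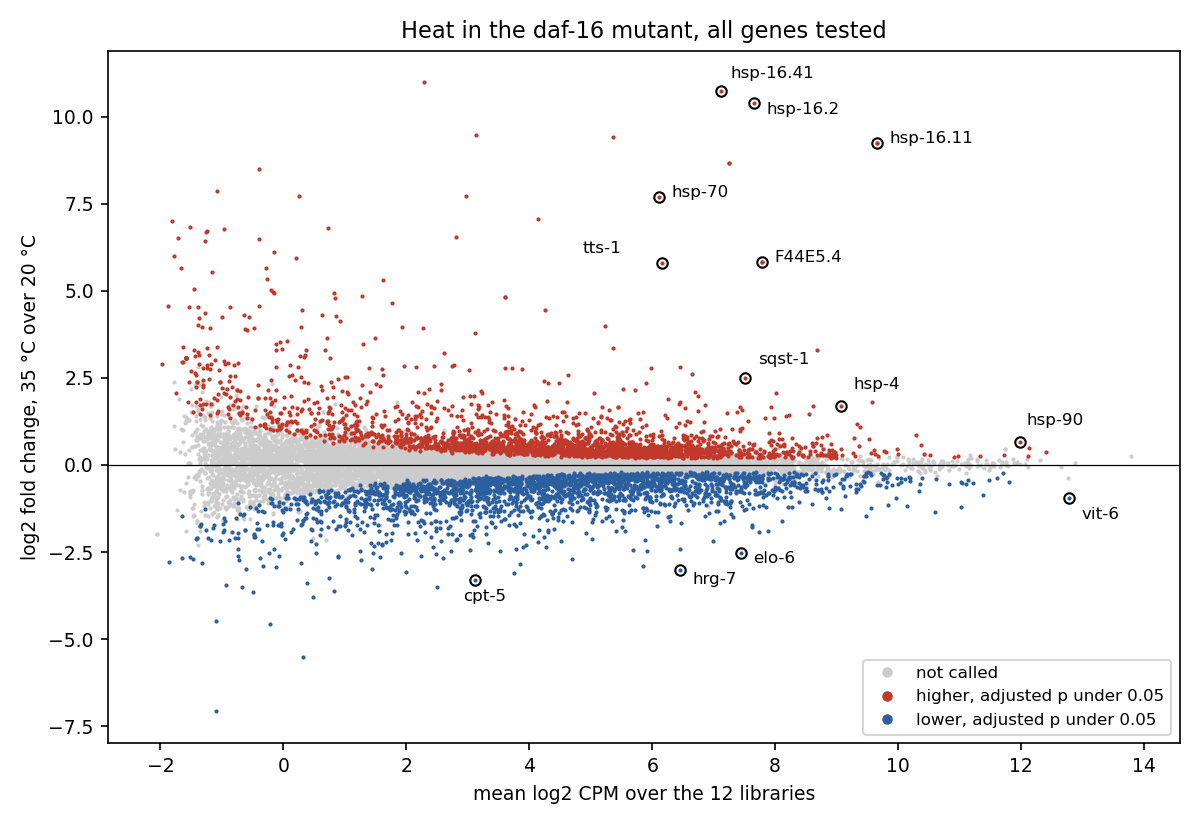
Log2 fold change with heat in the daf-16 mutant (35 °C over 20 °C, vertical axis) against the mean log2 CPM over the 12 libraries (horizontal axis) for the 14286 genes tested. Red points were called higher and blue points lower at an adjusted p under 0.05, grey points were not called, and circles mark genes named in the text. The tail of large changes lies above the line, with 105 rises and 16 falls of at least 3 on the log2 scale.

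The small heat shock proteins of the HSP-16 family made up 4 of the 15 largest rises. These proteins belong to the α-crystallin family, bind unfolding proteins and keep them from aggregating. hsp-16.2 had 577 and 327 CPM in the heated daf-16 libraries labelled replicate 2 and 3, against 0.425 and 0.241 CPM in the unheated libraries of the same numbers. Every value below is given in that order of replicates. The groups are far apart, and the fitted log2 fold change was 10.38 ± 0.50 (SE, n = 2 per group; adjusted p = 9.64e-08). The unheated libraries held only 14 counts of hsp-16.2 together against 17779 in the heated ones, a ratio of 1316 with a 95% counting interval of 784 to 2408.

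hsp-16.41 had 352 and 241 CPM in heated worms against 0.236 and 0.0966 CPM in unheated worms (log2 fold change 10.75 ± 0.46, SE). Its ratio of 1743 has a 95% counting interval of 845 to 4335, which overlaps that of hsp-16.2. hsp-16.1 and hsp-16.11 have identical counts and cannot be told apart, and either had 2181 and 1339 CPM in heated worms against 2.79 and 2.99 CPM in unheated worms. The other pair with identical counts, hsp-16.48 and hsp-16.49, had 391 and 257 CPM against 0.898 and 0.676 CPM. No heated library of these genes overlapped an unheated one. In the gene order of the RefSeq annotation, hsp-16.2 and hsp-16.41 lie beside each other, as do hsp-16.1, hsp-16.11, hsp-16.48 and hsp-16.49.

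Of 16 small heat shock protein genes with a row, 15 were tested, making 13 separate measurements. Of these 15, 11 rose, 0 fell and 4 did not pass the test, and over the 13 separate measurements the median log2 fold change was 1.82. Outside the HSP-16 group, hsp-17 rose with 170.0 and 148 CPM in heated worms against 46.7 and 43.3 CPM in unheated worms (log2 fold change 1.82 ± 0.09, SE; adjusted p = 9.64e-08). hsp-43 and hsp-25 rose by 0.67 and 0.45 on the log2 scale. The developmentally regulated members hsp-12.1, hsp-12.2 and sip-1, whose product acts in embryos and the germline, did not pass the test, at log2 fold changes of 0.10, -0.13 and -0.03. Nor did hsp-12.3, at -0.63 ± 0.23 (SE; adjusted p = 0.0540), which was called lower without the heated library labelled replicate 2 (-0.98).

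**Figure D2:**
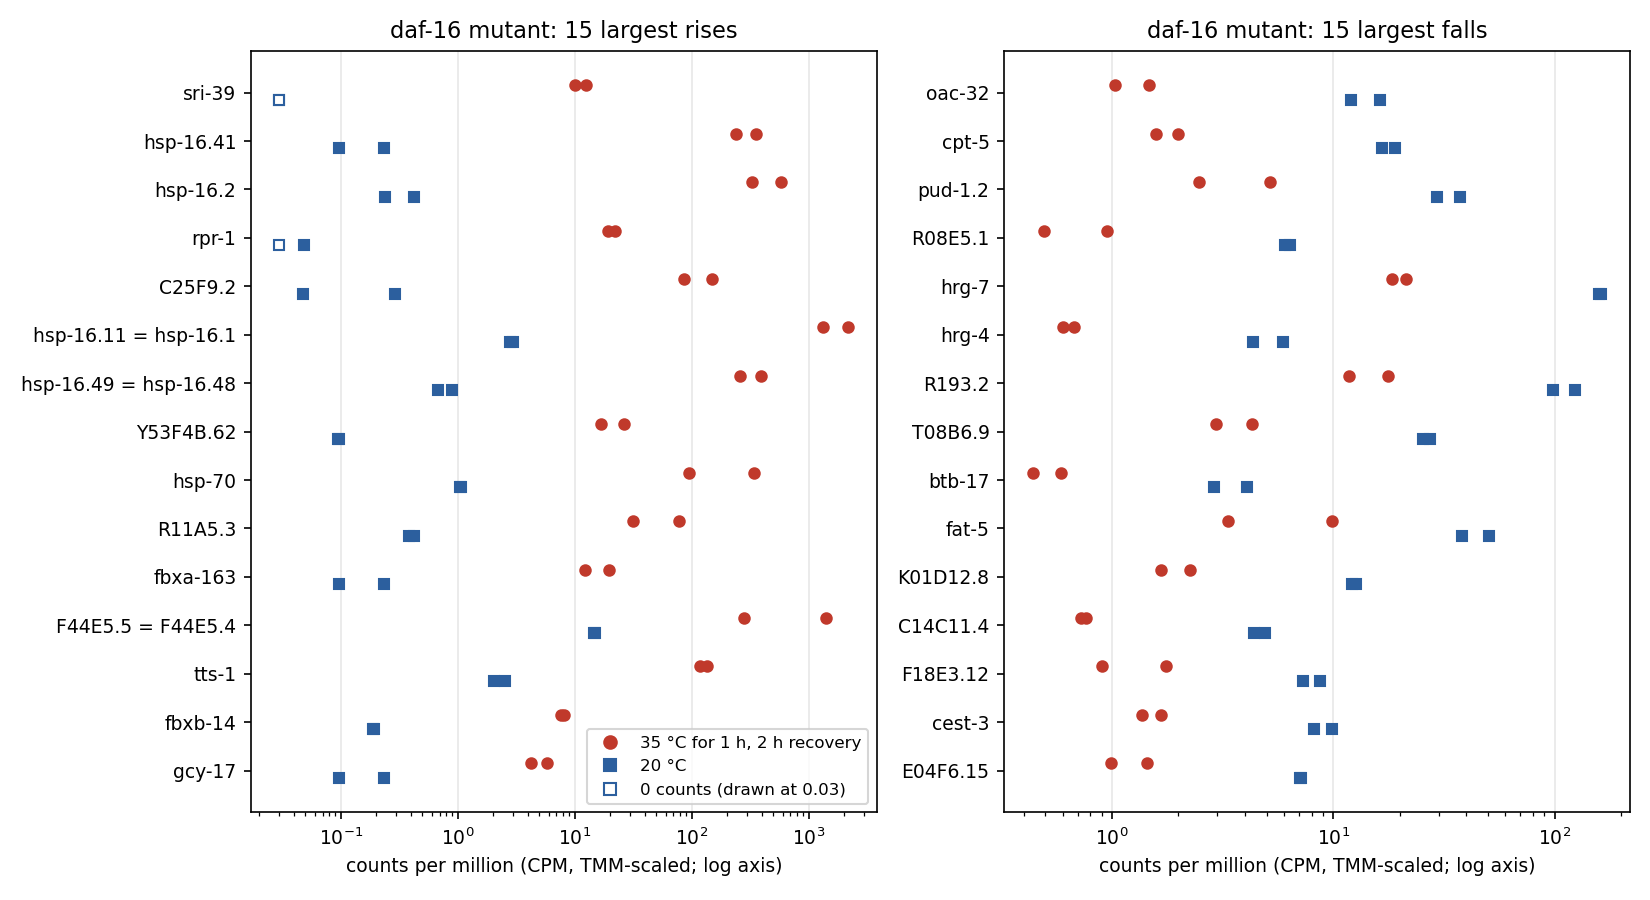
CPM on a log axis in each daf-16 library for the 15 largest rises (left) and the 15 largest falls (right), with heated libraries as red circles above the unheated ones as blue squares. Names joined by an equals sign have identical counts, and open squares mark 0 counts. No heated library overlaps an unheated one in these genes, which the choice of genes required, and the rises are larger in size (log2 fold changes of 4.85 and above) than the falls (-2.52 to -3.51).

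Inducible HSP70 genes, whose products refold proteins with ATP, rose unequally in the 2 heated libraries. hsp-70 had 342 and 95.9 CPM in heated worms against 1.04 and 1.06 CPM in unheated worms. F44E5.4 and F44E5.5, neighbouring HSP70 genes with identical counts, had 1404 and 281 CPM against 14.7 and 14.8 CPM. In both cases the heated library labelled replicate 2 was several times above that labelled replicate 3, yet both lay far above the unheated libraries (log2 fold changes 7.69 ± 0.81 and 5.83 ± 0.77, SE; adjusted p = 2.76e-05 and 0.000133).

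The constitutive cytosolic chaperones rose less, from high levels. hsp-1, the main HSC70, had 6105 and 5297 CPM in heated worms against 4003 and 4078 CPM in unheated worms (log2 fold change 0.50 ± 0.08, SE). hsp-90, which matures kinases and receptors, rose by 0.66, and hsp-110, a nucleotide exchange factor for HSP70, by 1.09 on the log2 scale. All 6 genes of the HSP70, HSP110 and HSP90 list were called higher, and over their 5 separate measurements the median log2 fold change was 1.09. Co-chaperones had 5 of 10 called higher and 0 lower, among them bag-1 at 0.70, the myosin chaperone unc-45 at 0.67, the HSP90 activator ahsa-1 at 0.60, dnj-12 at 0.54 and fkb-6 at 0.51 on the log2 scale. The chaperonin and prefoldin list, whose products fold actin and tubulin, had 9 of 14 called higher and 1 lower, with cct-5 at a log2 fold change of 0.44 ± 0.07 (SE) and a list median of 0.28. In a fit to the 4 daf-16 libraries alone, 5 of the 14 were called higher.

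Some chaperones of the endoplasmic reticulum and some sensors of its unfolded protein response were raised. hsp-4, the inducible BiP, had 1223 and 716 CPM in heated worms against 299.9 and 302 CPM in unheated worms, without overlap (log2 fold change 1.69 ± 0.19, SE; adjusted p = 5.16e-05). The other BiP gene, hsp-3, did not pass the test at 0.17 ± 0.08 (SE). The sensors pek-1 and atf-6 rose by 1.03 and 0.73 on the log2 scale, and xbp-1 did not pass the test at 0.03. The sensor ire-1 stood at 0.28 and was not called in a fit to the 4 daf-16 libraries. Of 18 genes in this list, 10 were called higher and 1 lower, with a median of 0.27. That count was 5 without the 20 °C library labelled replicate 3, 6 without the 35 °C library labelled replicate 2 and 5 in a fit to the 4 daf-16 libraries.

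Mitochondrial protein quality control was mixed. Of 10 genes for mitochondrial chaperones, proteases and their regulators, 2 were called higher and 3 lower, and their median was -0.09. The 2 rises were 0 without the 20 °C library labelled replicate 3 and 1 without either 35 °C library. hsp-60, the mitochondrial chaperonin, had 691 and 675 CPM in heated worms against 769.9 and 820.5 CPM in unheated worms (log2 fold change -0.22 ± 0.08, SE; adjusted p = 0.0486), and hsp-75, the mitochondrial HSP90, stood at -0.28. The call of hsp-60 was lost on leaving out any 1 of the 4 daf-16 libraries (log2 fold changes of -0.18 to -0.27), and that of hsp-75 without either library labelled replicate 2 (-0.22 and -0.25). Without a library labelled replicate 2 at either temperature, 0 members of the list were called lower, and without one labelled replicate 3 at either temperature 1 was.

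Among 18 stress transcription factors tested, 7 were called higher and 1 lower, and their median was 0.10. pqm-1 had 61.5 and 40.1 CPM in heated worms against 26.3 and 30.5 CPM in unheated worms (log2 fold change 0.84 ± 0.17, SE; adjusted p = 0.00253). pha-4, a FOXA factor of the gut, and hlh-30, the worm TFEB that switches on autophagy genes, rose by 0.78 and 0.53 on the log2 scale. hsf-1 itself had 52.7 and 63.3 CPM in heated worms against 58.7 and 62.6 CPM in unheated worms and did not pass the test, and nor did skn-1, the worm NRF factor, at -0.06 and 0.11 on the log2 scale. Without the 20 °C library labelled replicate 3, 4 factors were called higher, and without the 35 °C library labelled replicate 2, 3 were. Of 14 insulin signalling genes, 2 were called higher and 0 lower (0 higher without the 20 °C library labelled replicate 3 or the 35 °C library labelled replicate 2), and the receptor gene daf-2 had 35.6 and 69.9 CPM in heated worms against 42.3 and 37.4 CPM in unheated worms, a spread within the heated group that overlaps the unheated one.

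Autophagy genes, which build the vesicle that carries cell contents to the lysosome, rose in most cases by moderate amounts. Of 23 tested, 18 were called higher and 0 lower (78.3% against 16.5% of all genes), and the median log2 fold change was 0.58. sqst-1, the p62 receptor that brings protein aggregates to the autophagosome, had 483 and 281 CPM in heated worms against 66.3 and 68.2 CPM in unheated worms (log2 fold change 2.50 ± 0.23, SE; adjusted p = 1.05e-05). The ubiquitin-like proteins of the autophagosome membrane followed, with lgg-1 at 388 and 306 CPM against 172 and 197 CPM and a log2 fold change of 0.63 for lgg-2. epg-2, a cargo adaptor, rose by 0.85. The count lay between 15 and 19 under the alternatives other than the one that takes all count columns by header names and a fold threshold of at least 1 on the log2 scale, which sqst-1 alone passed.

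Genes of the proteasome, which destroys tagged proteins, rose in part and by small amounts. Of 31 subunits tested, 15 were called higher and 0 lower, 30 had a positive log2 fold change and the median was 0.22. rpn-3, a subunit of the regulatory lid, had 458 and 466 CPM in heated worms against 298 and 299.8 CPM in unheated worms (log2 fold change 0.63 ± 0.07, SE; adjusted p = 2.99e-05), and rpn-6.1 rose by 0.34. The count fell to 6 without the 20 °C library labelled replicate 2, to 8 without the 35 °C library labelled replicate 3, and to 5 in a fit to the 4 daf-16 libraries. A ubiquitin ligase of the intracellular pathogen response also rose. Its cullin gene cul-6 had 21.5 and 13.5 CPM in heated worms against 6.43 and 6.08 CPM in unheated worms, and its adaptor gene skr-3 had 166 and 139 CPM against 64.6 and 62.4 CPM, both without overlap (log2 fold changes 1.48 ± 0.25 and 1.26 ± 0.10, SE).

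Several of the largest rises lay outside the chaperones. tts-1, a long noncoding RNA known from long-lived worms, where it is linked to ribosome levels, had 136 and 118 CPM in heated worms against 2.55 and 2.03 CPM in unheated worms (log2 fold change 5.79 ± 0.52, SE; adjusted p = 9.29e-06). rpr-1, the RNA component of RNase P that trims transfer RNAs, had 22.1 and 19.5 CPM against 0 and 0.0483 CPM. Only 1 count of rpr-1 was seen in the unheated libraries together, so its ratio of 866 has a 95% counting interval of 155 to 34229.

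sri-39, which belongs to a family of chemoreceptor genes, had 12.5 and 10.0 CPM in heated worms and 0 counts in both unheated libraries. Against a floor of 3 counts over the unheated group, it was at least 155-fold higher. Of the 6 nearest genes, 3 were also called higher at least 2-fold, namely sri-36, F33H12.7 and sri-38. Over all genes, 548 of the 14286 tested were called higher by that much. The F-box genes fbxa-163 and fbxb-14, of a family that picks proteins for ubiquitin ligases, had 19.8 and 12.3 CPM against 0.236 and 0.0966 CPM and 8.06 and 7.63 CPM against 0.189 and 0.193 CPM. gcy-17, a receptor guanylate cyclase, rose by 4.85 on the log2 scale. C25F9.2, Y53F4B.62 and R11A5.3 complete the 15 largest rises, at log2 fold changes of 9.41, 7.73 and 7.05.

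The largest falls were smaller in size and included genes of haem handling and fat metabolism. hrg-7, which encodes a secreted protease-like protein that signals haem status, had 18.4 and 21.3 CPM in heated worms against 163 and 159.6 CPM in unheated worms (log2 fold change -3.02 ± 0.14, SE; adjusted p = 8.13e-08). hrg-4, a haem importer of the gut, had 0.603 and 0.677 CPM against 4.35 and 5.94 CPM. Both fell without overlap, which the choice of the largest falls required. R193.2 had 11.7 and 17.6 CPM in heated worms against 123 and 98.7 CPM in unheated worms. pud-1.2, one of a group of genes named for proteins that accumulate in daf-2 mutants, had 2.47 and 5.19 CPM against 37.4 and 29.5 CPM (log2 fold change -3.09 ± 0.27, SE).

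The other falls of this rank were oac-32, which belongs to a family of acyltransferase-like genes, the esterase-like gene cest-3, btb-17, T08B6.9, R08E5.1, K01D12.8, C14C11.4, F18E3.12 and E04F6.15, with log2 fold changes of -3.51 to -2.52. Some of these sit beside genes that fell too. F18E3.12, R08E5.1 and cest-3 each had 2 of the 6 nearest genes called lower at least 2-fold, which were F18E3.11 and F18E3.13, rips-1 and cysl-3, and cest-9.2 and cest-7. Among the 15 largest falls, oac-32, cpt-5, hrg-7, hrg-4, R193.2, fat-5 and C14C11.4 had 0 such neighbours and the others had 1. Over all genes, 641 of the 14286 tested were called lower by that much. rpr-1, hsp-70, fbxb-14, R08E5.1, hrg-7 and fat-5 overlap another annotated gene (ints-8, uggt-2, W08F4.12, R08E5.4, C15C8.7, and W06D12.8 with twk-42), and without strand their reads cannot be assigned with certainty. Each of the 30 genes of largest rise or fall kept its direction and its call in daf-16 under all alternatives but the one that takes all count columns by header names.

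Most genes for desaturating and lengthening fatty acids fell. Of 14 desaturases and elongases tested, 9 were called lower and 1 higher, and the median log2 fold change was -0.60. fat-5, the palmitate desaturase, had 3.34 and 9.84 CPM in heated worms against 38.3 and 50.4 CPM in unheated worms (log2 fold change -2.71 ± 0.44, SE; adjusted p = 0.000651). The stearate desaturases fat-6 and fat-7 fell as well, at log2 fold changes of -1.21 and -0.69. elo-6, an elongase of branched-chain fatty acids, had 38.7 and 59.2 CPM against 287 and 273 CPM, and elo-2 fell by 1.15. In the polyunsaturated branch, fat-1, fat-3 and fat-4 did not pass the test, at 0.04, 0.21 and 0.03, and fat-2 was called higher at 0.34. Without the 20 °C library labelled replicate 2, fat-2 stood at 0.28 and was not called.

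Fatty acid breakdown was mixed, with 7 of 21 genes called lower and 3 higher. cpt-5, of the carnitine palmitoyltransferase family that brings fatty acids into mitochondria, had 1.59 and 1.99 CPM in heated worms against 16.6 and 19.0 CPM in unheated worms (log2 fold change -3.30 ± 0.25, SE). Its relative cpt-4 moved the other way, with 43.9 and 50.6 CPM against 27.1 and 28.5 CPM (0.77 ± 0.15, SE). The acyl-CoA synthetase acs-2, the dehydrogenases acdh-2 and hacd-1 and the lysosomal lipase lipl-5 fell, at log2 fold changes of -2.36, -2.17, -2.48 and -1.18. nhr-114, a nuclear hormone receptor of the gut and germline, had 129.7 and 149.8 CPM in heated worms against 423 and 432 CPM in unheated worms and fell by 1.61.

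The vacuolar ATPase, the proton pump of lysosomes and gut membranes, fell in most of its subunits. Of 18 subunits, 14 were called lower and 0 higher, 17 had a negative log2 fold change and the median was -0.34. vha-20 had 168 and 159 CPM in heated worms against 274 and 268 CPM in unheated worms, vha-11 had 219 and 210.3 CPM against 343 and 335 CPM, and vha-6, the form of the gut's apical membrane, had 349 and 338 CPM against 523 and 488 CPM. None of these overlapped. Respiratory chain subunits also leaned down, with 12 of 26 called lower and 1 higher and a median of -0.21, and cox-6C fell by 0.43 on the log2 scale. That count of 12 was 5 without either the 20 °C or the 35 °C library labelled replicate 3.

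Genes of gut defence and detoxification fell in larger shares than the 16.5% of all genes. Lysozymes and saposin-like proteins, which attack bacteria, had 18 of 33 called lower and 4 higher, with a median of -0.43. ilys-5 had 405 and 439 CPM in heated worms against 1016 and 989 CPM in unheated worms, and lys-4 and lys-2 had log2 fold changes of -1.23 and -1.10. C-type lectins had 52 of 129 called lower and 12 higher (40.3% lower). Examples are clec-7 at -2.29 and clec-54 at -2.20 among the falls and clec-174 at 2.30 and clec-45 at 2.11 among the rises. The 12 rises were 5 without the 20 °C library labelled replicate 3 or the 35 °C library labelled replicate 2.

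Cytochrome P450 genes had 21 of 54 called lower and 4 higher, and glutathione and glucuronosyl transferases had 42 of 95 called lower and 14 higher. gst-4, a well-known target of SKN-1, had 8.88 and 8.17 CPM in heated worms against 21.4 and 21.2 CPM in unheated worms (log2 fold change -1.32 ± 0.12, SE; adjusted p = 1.03e-05). gst-24 went the other way with 45.0 and 32.1 CPM against 8.93 and 6.18 CPM. Among glucuronosyl transferases, ugt-63 fell by 2.03 and ugt-53 fell by 2.07 on the log2 scale. mtl-2, a metallothionein that binds metals, had 23.5 and 26.5 CPM in heated worms against 61.9 and 68.1 CPM in unheated worms and fell by 1.38 on the log2 scale. The P450 rises numbered 0 to 2 on leaving out either 20 °C library or the 35 °C library labelled replicate 2.

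Of the carbohydrate stress protectants, tps-1, which makes trehalose, had 47.0 and 48.1 CPM in heated worms against 28.5 and 23.3 CPM in unheated worms (log2 fold change 0.87 ± 0.15, SE; adjusted p = 0.000721). gpdh-2, for glycerol synthesis, rose by 0.56 on the log2 scale, while the trehalase tre-3 fell by 0.56. Of the infection response genes, 4 of 9 were called higher and 1 lower. sysm-1 (T24B8.5), a target of the p38 immune pathway, had 22.3 and 19.3 CPM in heated worms against 6.47 and 7.29 CPM in unheated worms, and irg-3 had 4.22 and 4.15 CPM against 10.5 and 10.9 CPM.

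Cuticle collagens went both ways, with 40 of 151 called lower and 22 higher. col-120 and col-137 had 92.8 and 93.2 CPM and 30.5 and 19.8 CPM in heated worms against 332 and 369 CPM and 103 and 121 CPM in unheated worms. Without the 20 °C library labelled replicate 3, 21 collagens were called lower and 9 higher, and without the 35 °C library labelled replicate 2, 11 were called higher. Among hedgehog-related and patched-related genes, 11 of 60 were called lower and 7 higher, close to the shares of all genes, and grl-27 fell by 2.22 on the log2 scale. The 7 rises were 3 without the 20 °C library labelled replicate 3 or the 35 °C library labelled replicate 2.

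Several large families stood at or under the shares of all genes, with 28 of 186 nuclear hormone receptors, 15 of 110 neuropeptide and insulin-like genes and 8 of 64 histone genes called higher. Cytosolic ribosomal proteins had 7 of 62 called higher and 1 lower, with a median of 0.03, and translation factors had 6 of 34 called higher and 0 lower. Without the 20 °C library labelled replicate 3, 13 nuclear hormone receptors, 5 histone genes and 3 translation factors were called higher, and without the 35 °C library labelled replicate 2, 9 neuropeptide and insulin-like genes were. The ribosomal rises rest on single libraries, since 0 were called without the 35 °C library labelled replicate 2, 1 without the 20 °C library labelled replicate 2 and 2 without that labelled replicate 3.

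Reproductive genes fell in part. Vitellogenins carry yolk from the gut to oocytes. vit-4 had 902 and 1471 CPM in heated worms against 2509 and 2951 CPM in unheated worms (log2 fold change -1.20 ± 0.21, SE; adjusted p = 0.000924), and vit-6 fell by 0.95 on the log2 scale. vit-2 did not pass the test at -0.36 ± 0.16 (SE). vit-5 was called lower at -0.86 ± 0.23 (SE), but not without the 20 °C library labelled replicate 3 (-0.75) or the 35 °C library labelled replicate 2 (-0.50). Of the 5 genes of this list, 3 were called lower, 2 without either of those libraries, and all 5 without the 35 °C library labelled replicate 3.

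Oocyte and eggshell markers were within the spread of the replicates in most cases, with 1 of 13 called lower and 0 higher. cbd-1, an eggshell protein, had 411 and 691 CPM in heated worms against 541 and 608 CPM in unheated worms, so the heated libraries lay on both sides of the unheated ones. Without the heated library labelled replicate 3, 11 of the 13 were called lower, and without that labelled replicate 2, 0 were. Germline markers had 0 of 8 called in either direction, and 1 lower without the 35 °C library labelled replicate 3. Where a list had 0 or 1 member called in a direction, leaving out a library moved that count by 1 or more in several lists.

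Most genes of the sperm marker list fell. Of 28 tested, 26 were called lower and 0 higher, their median log2 fold change was -0.84, and the count was 26 under the alternatives other than the fold threshold, which 4 passed (a log2 fold change of at least 1 in size), and the one that takes all count columns by header names. The major sperm protein genes are near-identical copies whose reads can be divided among them, so they are not separate measurements. Of 25 tested genes named msp, 25 were called lower. Genes named spe had 13 of 33 called lower and 2 higher, with a median log2 fold change of -0.34. msp-64 had 83.8 and 73.0 CPM in heated worms against 176 and 217 CPM in unheated worms, and spe-11, a paternal factor needed after fertilisation, had 46.0 and 38.6 CPM against 61.6 and 64.0 CPM (log2 fold change -0.57 ± 0.09, SE). ssp-16 did not pass the test at 0.24.

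Markers of other tissues can be set beside the 16.5% of all genes called in each direction. Gut markers had 4 of 7 called lower and 0 higher with a median of -0.93. The gut actin act-5 had 763 and 655 CPM in heated worms against 1379.7 and 1379.9 CPM in unheated worms, and ges-1, cpr-1 and pho-1 fell, at log2 fold changes of -0.93, -1.11 and -1.10. The gut markers summed to 1485 and 1407 CPM in heated worms against 2474 and 2421 CPM in unheated worms. ifb-2, a gut filament gene, had 448 and 409 CPM against 440.0 and 419 CPM and did not pass the test, and nor did the gut factor elt-7 at a log2 fold change of 0.12. Body muscle markers had 2 of 8 called higher and 0 lower, epidermal markers 1 of 5 higher and 0 lower, and neuronal markers 3 of 8 higher and 1 lower. With so few members, the muscle and epidermal rises are near the share of all genes. Without the 20 °C library labelled replicate 3, 0 muscle, 0 epidermal and 1 neuronal marker were called higher. Of the embryo markers, 5 of 6 with a row were too low to be tested. The part of tissue shares in the falls of gut-expressed lists, which include the vacuolar ATPase, lysozyme, lipid and yolk genes, was not tested.

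**Figure D3:**
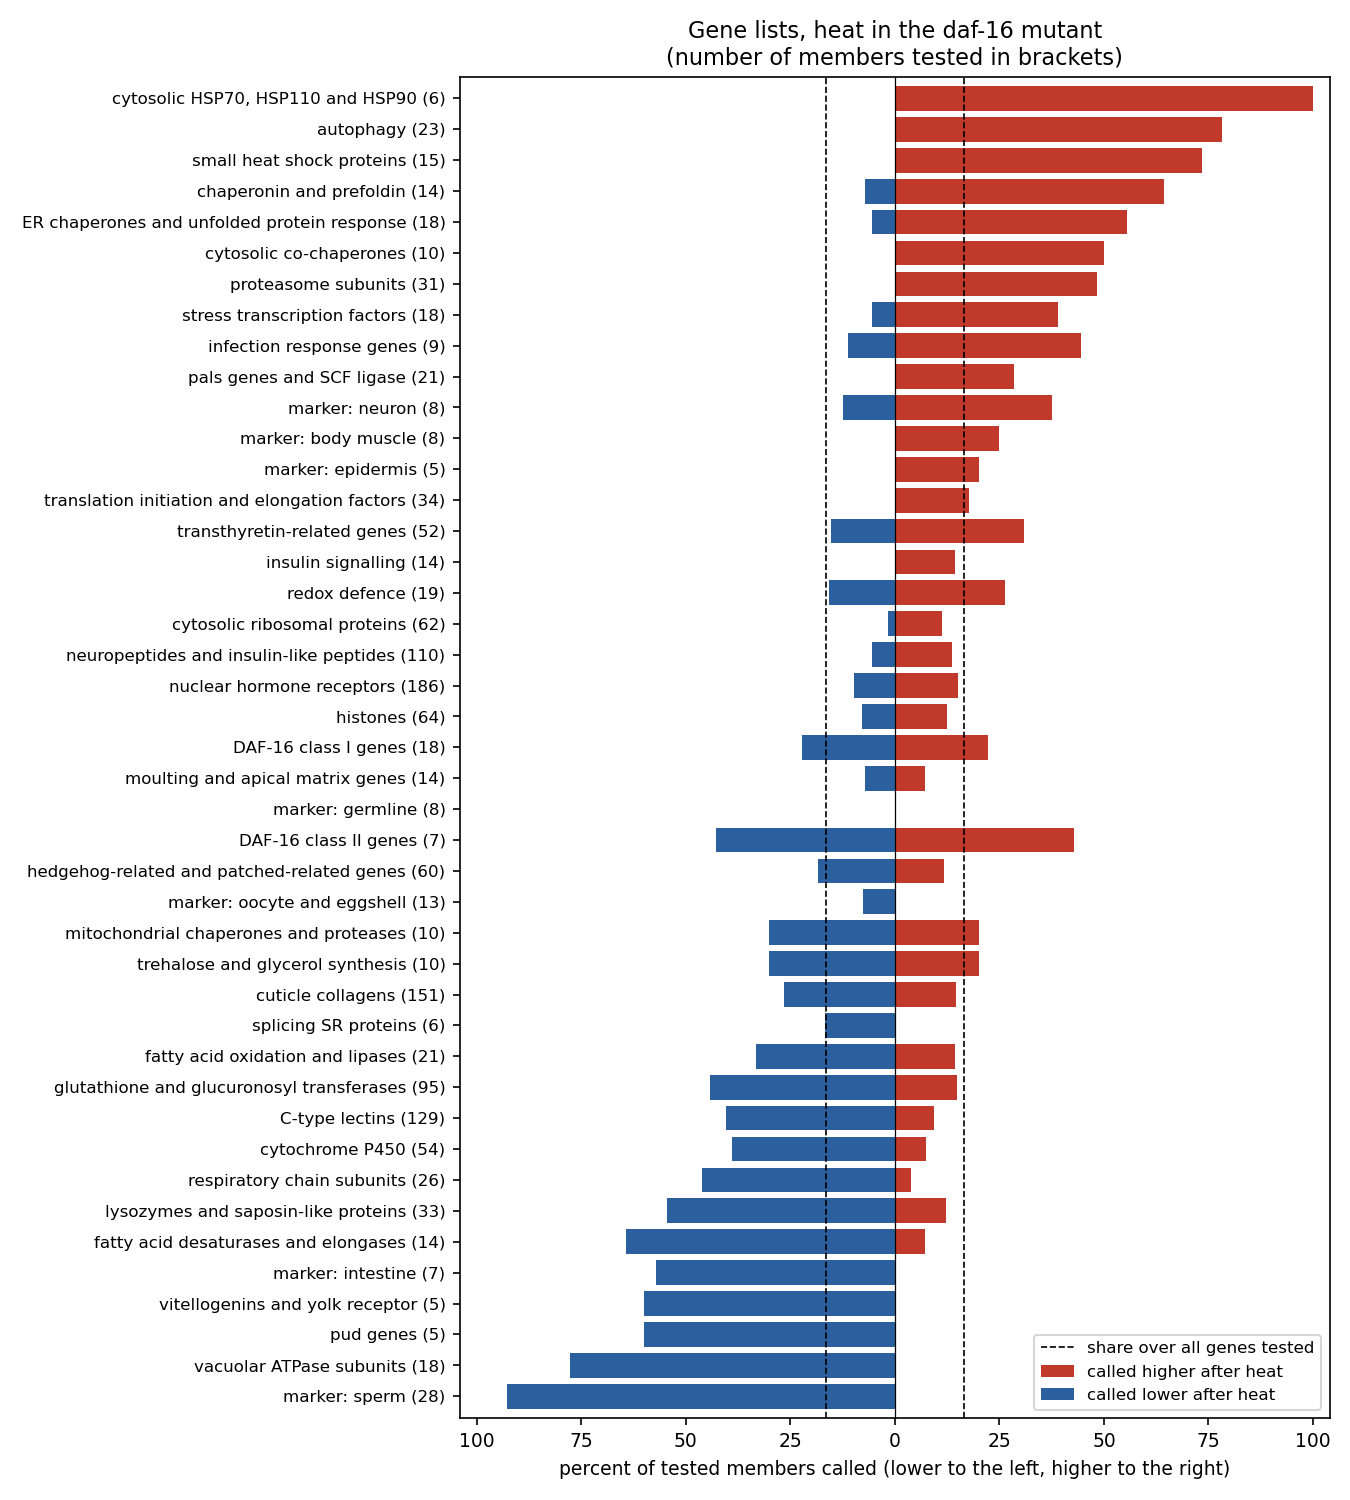
Percent of tested members called higher (red, to the right) and lower (blue, to the left) with heat in the daf-16 mutant, for each gene list with at least 5 members tested. Dashed lines mark the share over all genes tested, 16.5% each way. Cytosolic chaperones, autophagy and proteasome genes extend to the right. Sperm markers (which include near-identical copies), the vacuolar ATPase, gut markers and fatty acid desaturases and elongases extend to the left.

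Class I genes, those that DAF-16 raises when insulin signalling is low, were split in the mutant. Of 18 tested, 4 rose, 4 fell and 10 did not pass the test, and the median of their log2 fold changes was -0.02. The 22.2% called in each direction is near the 16.5% of all genes. In heated N2, 7 were called higher and 3 lower, and the median was 0.15. hsp-16.1, already described, is among the rises in the mutant. lea-1, which protects proteins during drying, had 449.6 and 403 CPM in heated mutants against 255 and 242 CPM in unheated mutants (log2 fold change 0.78 ± 0.12, SE; adjusted p = 0.000507). hsp-12.6 had 1.70 and 0.903 CPM against 0.189 and 0.338 CPM and rose by 2.25, but was not called without the 20 °C or the 35 °C library labelled replicate 2 (1.90 and 1.76). ctl-1 rose by 0.34, a call lost without either 20 °C library or the 35 °C library labelled replicate 3 (0.17 to 0.36). Without the 20 °C library labelled replicate 2, 2 class I genes were called higher. sod-3, the mitochondrial superoxide dismutase often used to report DAF-16 activity, had 3.12 and 3.52 CPM in heated mutants against 2.88 and 3.09 CPM in unheated mutants and did not pass the test. It did not pass it in N2 either (log2 fold changes 0.16 in the mutant and 0.15 in N2).

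Some class I genes that heat raised in N2 stood lower in the mutant. mtl-1, a metallothionein, had 0.384 and 0.587 CPM in heated mutants against 0.0945 and 0.193 CPM in unheated mutants, and 6.09 and 5.47 CPM in heated N2 against 0.299 and 0.417 CPM in unheated N2. Its log2 fold change was 1.75 ± 0.75 (SE; adjusted p = 0.0958) in the mutant, from 20 counts in heated and 6 in unheated worms, and 3.97 ± 0.40 (SE; adjusted p = 2.85e-05) in N2. The difference of the 2 changes was -2.22 ± 1.05 (SE) with an unadjusted p of 0.0550 by edgeR's quasi-likelihood test. Both heated mutant libraries stood below both heated N2 libraries. None of the differences between strains given here and below passed adjustment in the fit to all 12 libraries.

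The catalases differed by smaller amounts. ctl-2, the peroxisomal catalase, had 113 and 139 CPM in heated mutants against 108 and 112 CPM in unheated mutants, and 156 and 185 CPM in heated N2 against 99.1 and 101 CPM in unheated N2. Heated and unheated mutants were close, whereas heated N2 lay above unheated N2, and the difference of the log2 fold changes was -0.57 ± 0.15 (SE; unadjusted p = 0.00297, adjusted p = 0.214). ctl-2 was called in the mutant without the heated library labelled replicate 2, at 0.34. By the same edgeR test, ctl-1, the cytosolic catalase, gave -0.63 ± 0.15 (SE; unadjusted p = 0.00154) and ctl-3 gave -0.60 ± 0.13 (SE; unadjusted p = 0.000585). These neighbouring genes are near-identical in sequence, so reads may be shared among them. icl-1, the enzyme of the glyoxylate cycle, had 221 and 196 CPM in heated mutants against 252 and 266 CPM in unheated mutants and 297 and 439 CPM in heated N2 against 272 and 243 CPM in unheated N2, a difference of -0.83 ± 0.22 on the log2 scale (SE; unadjusted p = 0.00272).

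fat-5, aqp-1, which transports glycerol and water, and gst-10 are also class I genes and fell in both strains. Their log2 fold changes were -2.71, -1.61 and -1.23 in the mutant and -2.59, -1.18 and -0.98 in N2. nnt-1, the nicotinamide nucleotide transhydrogenase, had 1.43 and 1.76 CPM in heated mutants against 4.02 and 2.41 CPM in unheated mutants and fell, a call lost without either library labelled replicate 2 or the 35 °C library labelled replicate 3 (log2 fold changes of -0.59 to -1.18). Class II genes were split as well, with 3 of 7 called higher, 3 lower and 1 not called. dod-22 had 39.2 and 33.8 CPM in heated mutants against 14.3 and 14.1 CPM in unheated mutants, and 17.1 and 13.3 CPM in heated N2 against 7.98 and 10.6 CPM in unheated N2. Its rise was larger in the mutant by 0.66 ± 0.20 on the log2 scale (SE; unadjusted p = 0.00739), which did not pass adjustment (adjusted p = 0.232). dod-24 and dod-17 fell in both strains, with log2 fold changes of -1.02 and -1.32 in the mutant and -1.04 and -1.21 in N2. In all, 5 of the 18 class I genes and 1 of the 7 class II genes had an unadjusted p under 0.05 for the difference in heat response, against 14.9% of all genes tested.

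**Figure D4:**
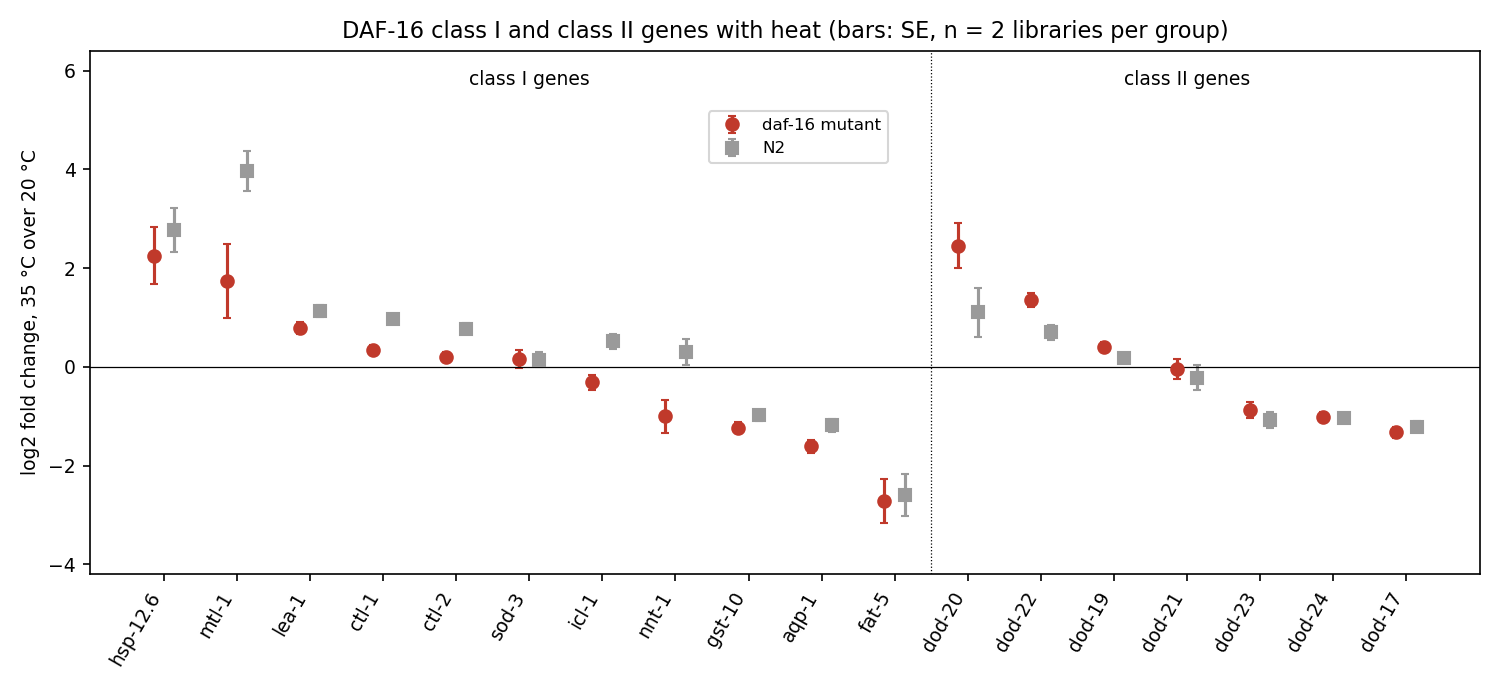
Log2 fold change with heat (35 °C over 20 °C) of 11 class I genes and the 7 class II genes in the daf-16 mutant (red circles, left of each pair) and in N2 (grey squares, right). Bars show the SE from the fit to all 12 libraries (n = 2 libraries per group). The 11 were picked by hand from the 18 class I genes tested, and the others are not shown. mtl-1, ctl-1, ctl-2, icl-1 and nnt-1 lie lower in the mutant than in N2, and fat-5, dod-24 and dod-17 lie close together.

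Set against N2 as a whole, most genes called in the mutant were also called in the same direction in N2. In N2, 4955 genes were called (34.7%), 2408 higher (16.9%) and 2547 lower (17.8%). Of the mutant's rises, 1488 were also called higher in N2, which is 63.1% of the mutant's and 61.8% of N2's. Of its falls, 1521 were shared, 64.4% of the mutant's and 59.7% of N2's. Of 869 rises called in the mutant and not in N2, 767 had the same sign in N2, and 252 had an unadjusted p under 0.05 for the difference. The corresponding falls numbered 830, 696 with the same sign and 355 with such a p. In 12 genes the calls were opposite, 2 higher in the mutant and lower in N2 (C17E4.20 and bcl-7) and 10 the reverse. The call of C17E4.20 in the mutant was lost without either 20 °C library or the 35 °C library labelled replicate 3 (0.42 to 0.58).

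No difference in heat response between the mutant and N2 passed adjustment in edgeR's quasi-likelihood test, where 0 genes were called, with 2128 (14.9%) at an unadjusted p under 0.05. DESeq2 called 62, and edgeR without a filter on low counts called 789. Leaving out the heated daf-16 library labelled replicate 2 gave 75 calls, and leaving out that labelled replicate 3 gave 18. Between the daf-16 and pqm-1 mutants 0 genes were called, with 932 (6.52%) at an unadjusted p under 0.05.

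The 10 genes with the smallest p for the difference from N2 all had an adjusted p of 0.139. All 10 were called by DESeq2 and by edgeR without a filter on low counts. Those fits use the same counts by which the 10 were picked, so the calls add no evidence of a difference. The genes in the direction of a higher change in the mutant were spp-23, cyp-33C8, C17E4.20, dct-17 and col-42. spp-23, a saposin-like gene, had 24.6 and 22.5 CPM in heated mutants against 22.7 and 22.6 CPM in unheated mutants, and 14.8 and 16.2 CPM in heated N2 against 27.4 and 26.2 CPM in unheated N2. Its heated and unheated mutant values are close together, whereas heated N2 lay below unheated N2. dct-17, named in a screen for DAF-16-controlled genes that affect germline tumours, had 113 and 82.3 CPM in heated mutants against 21.7 and 21.2 CPM in unheated mutants, and 37.7 and 32.8 CPM in heated N2 against 16.9 and 21.7 CPM in unheated N2. It rose in both strains, by 2.18 in the mutant and 0.87 in N2 on the log2 scale. In the pqm-1 strain, heat gave log2 fold changes of 2.34 for dct-17 and 0.15 for spp-23, close to those of the daf-16 mutant. cyp-33C8 stood at -1.12 there, closer to N2 (-1.33) than to the daf-16 mutant (-0.16). C17E4.20 and col-42 stood at -0.02 and -0.003 in the pqm-1 strain. A difference from N2 is thus not in each case particular to the daf-16 mutant.

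In the opposite direction were acs-22, tag-297, dct-6, C02E7.7 and lro-1. acs-22, an acyl-CoA synthetase of the surface barrier, had 62.5 and 67.4 CPM in heated mutants against 81.8 and 82.8 CPM in unheated mutants, and 79.9 and 86.6 CPM in heated N2 against 59.3 and 62.6 CPM in unheated N2. The groups do not overlap in either strain and move in opposite directions. The difference was -0.79 ± 0.12 (SE; unadjusted p = 2.33e-05, adjusted p = 0.139, edgeR's quasi-likelihood test). acs-22 was picked for this small p, so the separation of its groups adds no evidence of a difference. Without the heated daf-16 library labelled replicate 2 the fall in the mutant was not called (-0.29) and the difference from N2 was -0.74. Without that labelled replicate 3 the difference was -0.85. tag-297 had 193 and 176 CPM in heated mutants against 183 and 175 CPM in unheated mutants, and 207 and 236 CPM in heated N2 against 109 and 111 CPM in unheated N2, so it rose in N2 and stayed within the replicate spread in the mutant. C02E7.7 had 100.3 and 108 CPM in heated mutants against 226 and 210.5 CPM in unheated mutants, and 169 and 162 CPM in heated N2 against 187 and 195 CPM in unheated N2.

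**Figure D5:**
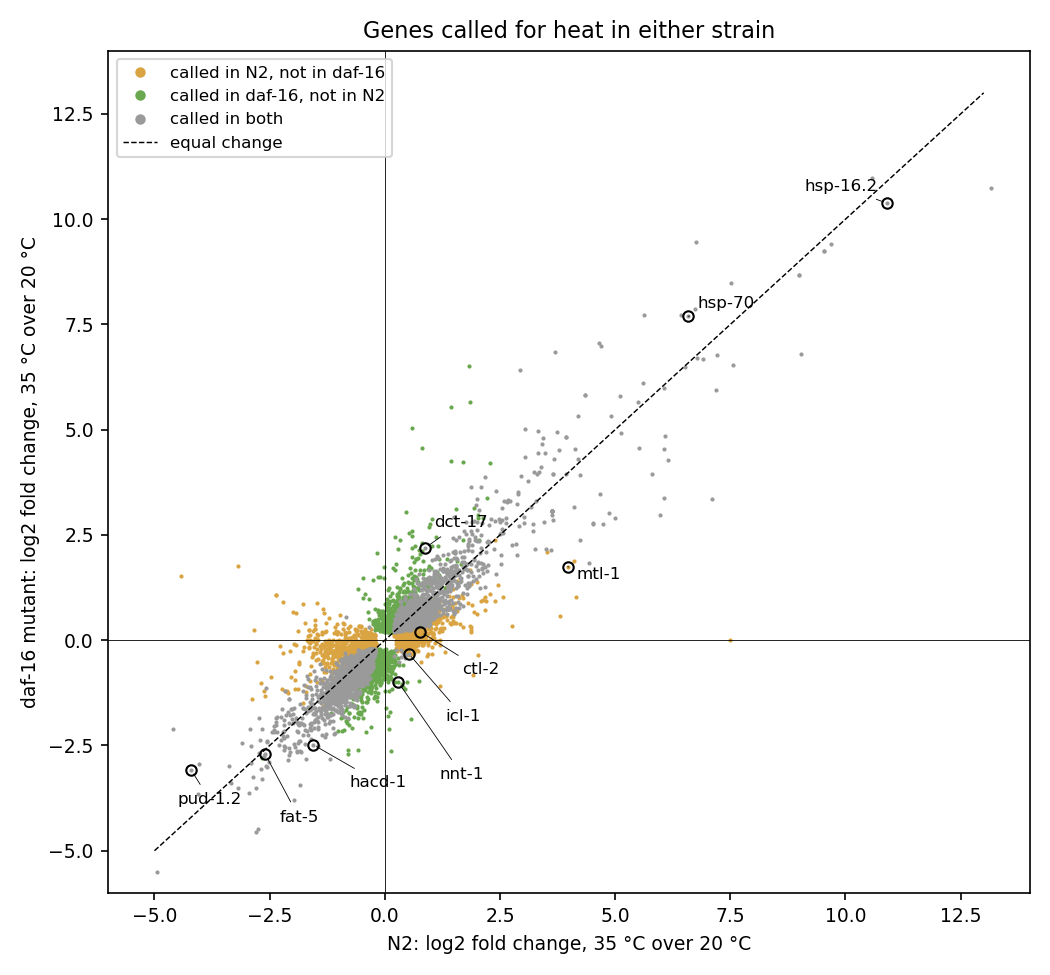
Log2 fold change with heat in the daf-16 mutant (vertical axis) against that in N2 (horizontal axis) for genes called in either strain. Grey points were called in both, green in daf-16 and not in N2, gold in N2 and not in daf-16, the dashed line marks equal change, and circles mark named genes. hsp-16.2, hsp-70, pud-1.2 and fat-5 changed in the same direction in both strains, and mtl-1, ctl-2, icl-1 and nnt-1 lie below the line.

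Some lists had different counts in the 2 strains, side by side and without a test of the list. Over all genes tested, 16.5% were called higher and 16.5% lower in the mutant, and 16.9% higher and 17.8% lower in N2. By edgeR's quasi-likelihood test, 14.9% of all genes had an unadjusted p under 0.05 for the difference. Autophagy had 18 of 23 called higher in the mutant and 10 in N2 (medians 0.58 and 0.32). Of the 23, 3 had an unadjusted p under 0.05 for the difference, near the share of all genes. Proteasome subunits had 15 of 31 called higher in the mutant and 5 in N2 (medians 0.22 and 0.12), with 0 such differences, and the mutant's count was 6 or 8 on leaving out a library, as given above. Oocyte and eggshell markers had 1 of 13 called lower in the mutant and 12 in N2 (medians -0.29 and -0.94), and 10 of the 13 had an unadjusted p under 0.05 for the difference. Without the heated daf-16 library labelled replicate 3, 11 of the 13 were called lower in the mutant. cpg-1, an eggshell proteoglycan, had 294 and 556 CPM in heated mutants against 429.6 and 475 CPM in unheated mutants, and 324 and 434 CPM in heated N2 against 881 and 811 CPM in unheated N2. The heated mutants lay on both sides of the unheated ones, while both heated N2 libraries lay below both unheated ones.

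Heated libraries of the same strain differed from each other in chaperone genes. Over the 5 separate measurements of HSP70, HSP110 and HSP90 genes, the median ratio of the heated daf-16 library labelled replicate 2 to that labelled replicate 3 was 1.26, against 0.98 between the unheated libraries. Small heat shock proteins gave 1.46 in heated and 0.99 in unheated worms over 11 separate measurements, oocyte and eggshell markers 0.65 and 0.81, and vitellogenins with their receptor 0.61 and 0.86. All 5 HSP70, HSP110 and HSP90 measurements were higher in the heated daf-16 library labelled replicate 2, and 0 of the 13 oocyte and eggshell markers were. The heated N2 libraries showed the same order for hsp-70, at 136 and 40.8 CPM, and for hsp-16.2, at 462 and 257 CPM. In N2 the median ratios were 1.11 for HSP70, HSP110 and HSP90 genes (5 of 5 higher in replicate 2), 0.97 for small heat shock proteins (4 of 11) and 0.91 for oocyte and eggshell markers (1 of 13). The spread between replicate counts exceeded sampling noise in every group, as the chi-square divided by its degrees of freedom was 20.3 in heated and 9.78 in unheated daf-16 worms. Whether the heated libraries differed in exposure, recovery or stage was not tested.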

How the data were processed

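RNA of whole worms was sequenced in 6 groups, 2 temperatures in each of 3 strains, and the 12 libraries labelled replicate 2 and 3 were used. The authors deposited estimated counts per RefSeq transcript, which per the file headers are columns named by sample. Of the non-zero values 13.3% are not whole. The aligner, counter and genome build are not given in the sources used here, and whether counting used strand is not stated, so overlapping and antisense genes are uncertain. The 5 other libraries labelled replicate 1 were left out because the header may be displaced by 1 column.

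Of 50755 transcript rows, 45910 matched a gene of the RefSeq WBcel235 annotation, from which only names and gene order were taken. These gave 39798 genes, and for each gene the transcript most abundant on average was kept and its counts rounded to whole numbers. The 4845 other rows hold 23.4 to 24.3% of the row totals and stayed out of library sizes and tests. In all, 221 genes share all their values with some other gene and cannot be told apart from it.

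The test was the quasi-likelihood F-test of edgeR 4.0.16 in R 4.3.3, after filterByExpr and TMM scaling, over all 6 groups (6 residual degrees of freedom). The SE of a log2 fold change is its size divided by the square root of the F value of this test. It rests on a spread estimated over all 12 libraries. Genes were called at an adjusted p under 0.05 over the 14286 genes tested. The labels call the replicates biological. With 2 libraries per group no other split of the samples was used. Intervals on ratios of counts are exact 95% intervals, which like the floor of 3 counts cover counting error only. On counts simulated for heat in daf-16 over 14102 genes, 88% of the 2-fold and 100% of the 4-fold changes among 200 changed genes were called, with 17 false calls. The changed genes averaged above 1 in log2 CPM, were raised and lowered in equal numbers, and had noise drawn separately for each gene. In the data 4720 genes were called, so these rates do not carry over to the comparison. Alternatives were DESeq2 1.42.0, other scaling factors, other filters, a replicate block, another choice of transcript, unmatched rows kept, all count columns by header names, the groups compared alone, a fold threshold and leaving out each library. Figures were drawn with matplotlib 3.10.9.

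The libraries described and the 46 gene lists, 8 of them cell type markers, were chosen with earlier results of these data known. Genes were named by a rule. It takes daf-16, the 15 genes that rose most and the 15 that fell most among called genes whose log2 CPM averaged at least 1 and whose heated and unheated libraries did not overlap, members of the lists, and the 5 genes in each direction with the smallest p for the difference from N2. Neighbouring genes and genes called in opposite directions were named after their values were seen.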

Additional observations from a re-analysis of the deposited data

Results flagged for a closer look

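In libraries outside the comparisons, hsp-16.2 stood at 208.7 CPM for the N2 label (20 °C, replicate 1) and at 324.3 CPM for the pqm-1 label (20 °C, replicate 1). The 6 unheated libraries used in the comparisons reached 0.420 CPM. These values drew attention because both libraries carry the label of an unheated group while their hsp-16.2 levels lie above every unheated library used.

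Transcript rows that matched no gene name held a heat signal as well. Of 4154 such rows tested in the daf-16 mutant, 708 were called higher and 459 lower with heat at an adjusted p under 0.05 by edgeR. They drew attention because they enter no result of the report, and rows of 1 gene repeat reads, so they are not separate measurements.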

How the results depend on the processing

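Taking all count columns by their header names left 0 genes called for heat in daf-16 in either direction, 0 for heat in N2 and 0 in the same direction in both strains, against 4720, 4955 and 3009. The cause was not tested. A log2 fold change of at least 1 in size left 1189 of the genes called in daf-16 (548 higher and 641 lower), 1141 in N2 and 679 in the same direction in both. A fit to the 4 daf-16 libraries alone called 3445 genes, 1526 of them higher, and has fewer samples behind its spread. Leaving out each library in turn gave 3059 to 4262 genes for heat in daf-16, 1392 to 2144 higher and 1667 to 2118 lower, with the lowest counts without the 20 °C library labelled replicate 3. The range was 3295 to 4113 in N2 and 2151 to 2865 for genes called in the same direction in both, with the lowest N2 count without its 35 °C library labelled replicate 2. The 0 differences between the heat responses of daf-16 and N2 became 62 with DESeq2, 789 without a filter on low counts and 0 to 75 on leaving out each library. Other scaling factors moved the median log2 fold change of all genes by -0.02 to 0.01, and DESeq2 called 3893 genes, 1768 of them higher, against 2359 of 4720 in edgeR. Of 196 named genes, 193 were tested in the fit to the 4 daf-16 libraries and 196 in the other alternatives, and 0 reversed while called. Calls of 7 were lost with DESeq2, of 24 in the fit to the 4 daf-16 libraries and of 18 to 27 on leaving out a library.

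The numbers do not pair the samples by any label. Between the heated and unheated daf-16 libraries, deviations of same-numbered libraries correlated at r = 0.01 across genes, with only 2 pairs, and those of heated daf-16 and heated N2 libraries at r = 0.22. With the replicate number as a block 4675 genes were called for heat in daf-16, and with a block within each strain 4657. The alternatives for counts over gene lists were chosen after seeing the data. The planned search for promoter motifs was not run, because promoter sequences were not used here. Depth limits the values of genes with few unheated counts, such as rpr-1, whose counting interval is given above.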

Other observations

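Some families sharing a name prefix, and not described as families above, held more calls in the heated daf-16 mutant than the 16.5% of all genes in each direction. They were picked after their values were seen, so no test is given. Nuclear pore genes (npp) had 11 of 21 called higher, genes of vesicle sorting to the lysosome (vps) 15 of 30, and splicing factors named prp 8 of 12. Arrestin-domain genes (arrd) had 8 of 23 called higher and 1 lower. Among falls, acyltransferases (acl) had 9 of 13 called lower, and aspartic proteases (asp) 7 of 11 lower and 1 higher.

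Transthyretin-related genes had 16 of 52 called higher and 8 lower, with 7 called higher in the fit to the 4 daf-16 libraries alone and 8 without either library labelled replicate 2. Redox defence genes had 5 of 19 called higher and 3 lower, with 2 higher without either 20 °C library or the 35 °C library labelled replicate 3. The pals genes with the ligase of the intracellular pathogen response had 6 of 21 tested called higher and 0 lower, with 2 higher without the 20 °C library labelled replicate 2 and 3 without either the 20 °C library labelled replicate 3 or the 35 °C library labelled replicate 2. Of 3 metallothionein and cadmium response genes 1 was called lower, of 6 splicing SR protein genes 1 was called lower, and of 14 moulting and apical matrix genes 1 was called higher and 1 lower. By class of RNA, 9 of 28 small nuclear RNA genes and 10 of 47 long noncoding RNA genes were called higher and 0 lower. Of 136 piRNA genes, 7 were called higher and 14 lower. How the libraries captured such short or non-polyadenylated RNAs was not tested.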
